A study of Mus musculus with 23 samples.

Results

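The cytosolic ribosomal protein genes encode the protein subunits of the ribosome that works outside mitochondria. They were taken as the mouse protein-coding genes whose symbols have the Rpl or Rps form with a number, plus Rplp0, Rplp1, Rplp2 and Rpsa; their pseudogenes and the S6 kinases were left out. Of 83 such genes in the annotation, 82 had an identifier in the count data, among 37620 gene identifiers in all. They comprised 50 proteins of the large (60S) subunit and 32 of the small (40S) subunit, and 80 of them had counts above 0 in all 23 libraries.

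Total RNA of mouse melanomas induced by ultraviolet light was sequenced in 4 groups. HP primaries (7 libraries) were primary tumours with wild-type Nme1 and Nme2. HPN primaries (7 libraries) were primary tumours heterozygous for both genes (Nme1+/- and Nme2+/-). Metastases in lymph nodes (7 libraries) and in the lung (2 libraries) came from animals of the heterozygous genotype, and no metastasis of the wild-type genotype was among the samples. The labels give no sex, age, ultraviolet dose or transgene, and they do not spell out what HP stands for. The number in a title was taken to mark the animal. Nodes 7a (cervical) and 7b (inguinal) then share 1 animal, which left 6 node samples. Where nothing shows that primaries came from separate animals, p-values measure only the spread between these samples.

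A ribosome holds 1 copy of nearly every ribosomal protein, and the genes for these proteins are known to be transcribed at high rates and in a coordinated way. Their mRNAs typically begin with a C followed by a run of pyrimidines, the 5' TOP motif, through which mTOR signalling controls their translation. A few members have paralogues used mainly in certain tissues: Rpl3l is a striated muscle form of Rpl3, and Rpl10l and Rpl39l are testis forms of Rpl10 and Rpl39. Rps27l, a paralogue of Rps27, is known as a target of p53.

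Counts assigned to genes ranged from 18.9 to 89.5 (in units of 1e6) per library, and ribosomal protein genes took 1.17 to 3.35% of them. Levels below are counts per 1e6 (CPM) scaled by TMM. The targeted gene Nme1 had 16.8 ± 8.06 CPM in wild-type and 10.6 ± 2.78 CPM in heterozygous primaries (SD, n = 7 each), and neither Nme1 nor Nme2 passed the edgeR test between genotypes (adjusted p = 0.951 for each). Melanocyte markers were abundant in every library, from a summed 4510 CPM in node 5 to 61500 CPM in HPN primary 5. HP primary 5 stood apart in ribosomal protein RNA, above the other HP primaries, and values without it are given where it decides a direction or a call. Since these are bulk tumours, fewer cells of a type and less RNA per cell cannot be told apart.

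To show the start sites of genes that changed between primaries and nodes, 30 bases around the start were taken from RefSeq promoter windows (build GRCm38.p6), 15 bases on each side. The files' own build is mm9, so these coordinates apply to GRCm38.p6 only. Capitals mark the C and the unbroken pyrimidines after it that lie nearest the annotated start. The table held 62 of the 82 members.
Rps27: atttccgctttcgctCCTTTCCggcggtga
Rps6: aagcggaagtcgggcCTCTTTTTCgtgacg
Rpl35a: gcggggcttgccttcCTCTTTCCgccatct
Rps23: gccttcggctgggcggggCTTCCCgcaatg
Rpl3l: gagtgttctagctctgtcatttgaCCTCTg
The windows of Rps27 (chr3:90213634-90213663, minus strand) and Rps6 (chr4:86857353-86857382, minus strand) had the marked C at the annotated start itself, with other pyrimidines directly before it. Rpl35a (chr16:33056467-33056496, plus strand) did so as well at the start shown, 1 of 3 listed for the gene and the only one with a marked stretch. In Rps23 (chr13:90923107-90923136, plus strand) the run began 3 bases after the start. In the muscle paralogue Rpl3l (chr17:24727811-24727840, plus strand, 1 of 2 listed starts) the nearest run lay 9 bases after it.

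A C followed by 4 pyrimidines (C or T, read on the transcribed strand) stood exactly at the start in 13 of 74 ribosomal protein promoters, or 17.6%, against 2.51% of all 32851 promoters in the table. Within 5 bases of the start it stood in 41.9% of the members' promoters and in 18.3% of all. The letters CCGGAAG, found in binding sites of some ETS-family factors, or their reverse complement were searched from 250 bases before to 50 after the start. They stood anywhere in this window in 36.5% of the members' promoters and in 8.86% of all. These are matches of letters and overlap between the searches was not removed.

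Per kb of exon, Rplp1 and Rplp0 led. Rplp1 averaged 1052 CPM per kb and Rplp0 554 CPM per kb over the 23 libraries; both belong to the P stalk, which recruits elongation factors. Rplp2, the other P stalk gene, averaged 132.5 CPM per kb. Rpl36 (502 CPM per kb), Rps15 (462.5 CPM per kb) and Rps3a1 (418.5 CPM per kb) followed. At the other end, Rpl7l1 (16.9 CPM per kb) and Rpl22l1 (25.4 CPM per kb) were the lowest of the 79 members with a mean of at least 5 CPM. Rpl3l and Rpl39l averaged only 0.847 and 0.769 CPM per kb. The testis paralogue Rpl10l had 0 counts in all 23 libraries, which with 3 counts as the limit allows up to 0.0335 to 0.159 CPM depending on depth, counting error only. Exon lengths come from all annotated transcripts, so a member with many long or rarely used exons has a lower value per kb than its main transcript would give.

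**Figure D1:**
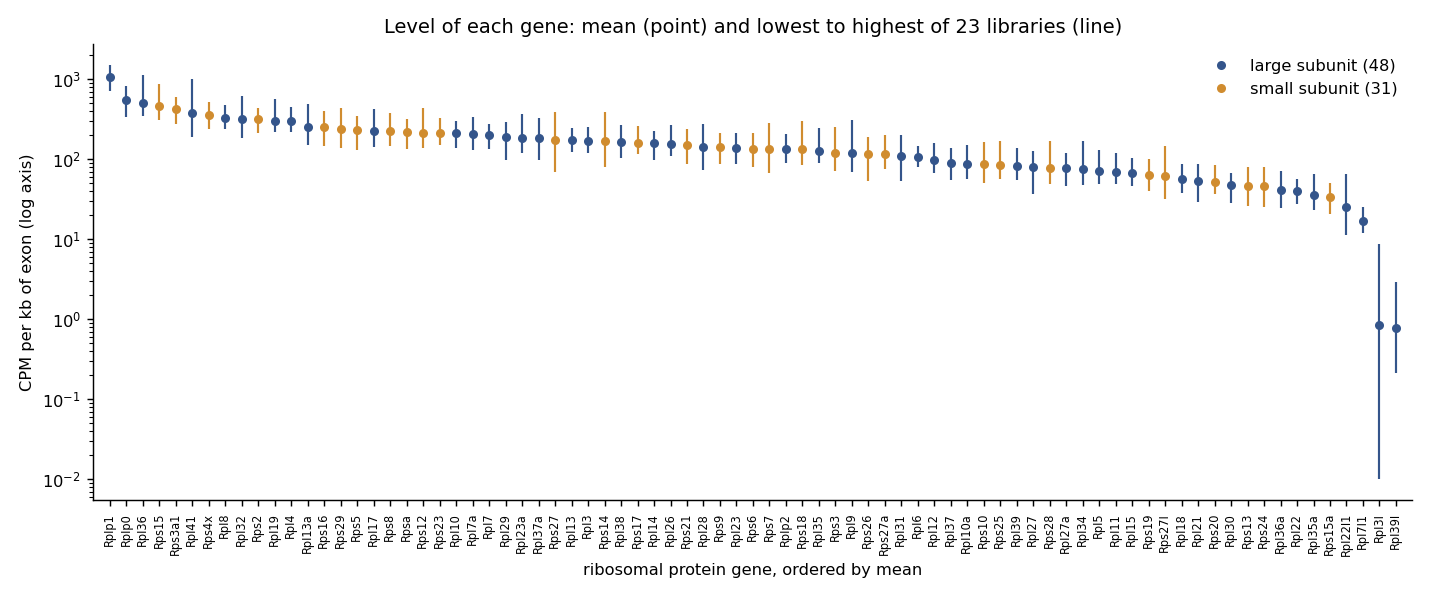
Level of 79 ribosomal protein genes with counts, in CPM per kb of exon on a log axis, with the mean as a point and the lowest to highest of 23 libraries as a line. Genes whose single-gene results are not reported here are not drawn, so these are not the 79 members with a mean of at least 5 CPM. The ordinary members spread over a range from Rplp1 at 1052 to Rpl7l1 at 16.9, and Rpl3l and Rpl39l sit below 1 (the line of Rpl3l, which has a library at 0, was drawn down to 0.01).

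The more abundant paralogue of a pair was the same in every library. Rpl22 exceeded Rpl22l1 in all 23 libraries, by 1.11 times in HP primary 5 to 5.55 times in HPN primary 5, and Rpl7 exceeded Rpl7l1 by 6.34 to 14.2 times, in CPM. Rps4l is annotated as a pseudogene and is not a member.

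Members rose and fell together from library to library. The median correlation between pairs of the 79 members over the 23 libraries was 0.676. Between pairs of 1211 genes, taken at regular steps from the 12108 with a mean of at least 5 CPM, it was 0.035. These genes were not matched to the members by level. Libraries, depth and scaling are shared by every gene in such a value. Rps19, mutated in Diamond-Blackfan anaemia, followed the mean of the other members most closely (r = 0.957). Rpl22l1 (0.400), Rps27l (0.472) and Rpl7l1 (0.515) followed it least, and all 3 are paralogues of another member. The SD of log2 CPM over the libraries had a median of 0.360 among members and 0.424 among the 12108 genes with a mean of at least 5 CPM. Rps27 varied most (SD 0.648), and Rpl22l1 (0.567), Rps27l (0.560) and Rps29 (0.496) were also among the 5 that varied most. Rpl22 (0.241), Rpl6 (0.248), Rps2 (0.261), Rplp1 (0.277) and Rpl8 (0.279) varied least.

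The summed level of the 82 members was 15743 CPM at its lowest, 17857 CPM at the median and 33930 CPM at its highest among the 7 HP primaries. Among the 7 HPN primaries it ran from 18386 CPM through a median of 22016 CPM to 30899 CPM. The 6 node samples ran from 20317 CPM through 25067 CPM to 29110 CPM, and the lungs held 17968 and 20960 CPM. All 4 groups overlapped, and the order of their means (node 25180 ± 3050 CPM, HPN primary 22900 ± 4580 CPM, HP primary 21000 ± 6260 CPM, lung 19460 ± 2120 CPM; SD, n = 6, 7, 7 and 2) spans less than the range inside the HP primaries.

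Relative to each member's own median over 23 libraries, HP primary 5 stood highest, with a median of 0.589 on the log2 scale and 75 of 79 members above their median. HP primaries 3 and 4 had 0 of 79 members above, at medians of -0.458 and -0.376. HPN primary 5 was high (0.474, 72 of 79), and nodes 6 and 7a had 78 of 79 members above. The members did not shift equally in every library. Their SD within a library was 0.105 in node 4 and 0.442 in HP primary 5, where Rpl9 (1.53), Rpl22l1 (1.47), Rpl41 (1.46), Rps27l (1.42) and Rps14 (1.39) stood highest while Rpl4 stood at -0.25. In HPN primary 3, Rps26 (-1.14), Rps27 (-1.12), Rpl27 (-1.06) and Rpl29 (-1.01) were among the low members while Rpl37a stood at 0.61. In HPN primary 5 the high end was led by Rpl36 (1.37) and Rps28 (1.16), and Rpl22l1 (-0.67) was the lowest member. Scaled by total gene counts instead of TMM, the median of HP primary 3 was -0.905; this library also had the highest share of structural RNA, 12.8% of gene counts, and its part in the low value was not tested.

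**Figure D2:**
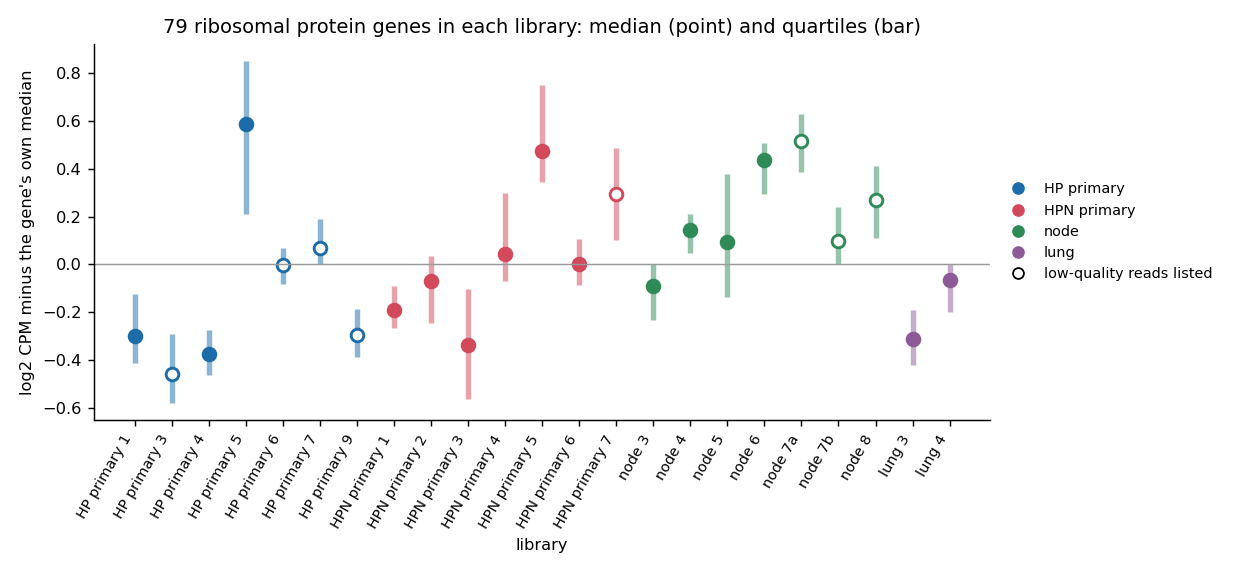
Median (point) and quartiles (bar) over 79 ribosomal protein genes of log2 CPM minus the gene's own median, for each of 23 libraries coloured by group; open points mark the 8 libraries with reads listed as low in alignment quality. HP primary 5 is highest at 0.589 and HP primary 3 lowest at -0.458, so primaries cover the whole range of the medians.

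The first comparison asked whether loss of 1 copy of Nme1 and Nme2 was accompanied by a change in primary tumours. None of 81 members tested passed between HPN and HP primaries (edgeR quasi-likelihood test, Benjamini-Hochberg over 16578 genes, threshold 0.05), where 0.0% of all genes passed; 1 member had an unadjusted p under 0.05, and DESeq2 called 0. The members' log2 differences had a median of 0.0995 with 58 of 81 above 0, against -0.0521 and 42.5% above 0 over all genes. Without HP primary 5 the median was 0.212 and without HPN primary 5 it was 0.00306. The smallest p values upward were those of Rpl37a, Rplp2 and Rpl18, which did not pass. For Rpl37a the wild-type primaries had 203.1 ± 64.7 CPM and the heterozygous ones 292.1 ± 99.8 CPM (SD, n = 7 each), a log2 difference of 0.49 (SE 0.23, adjusted p = 0.951). Downward, Rpl39l (-0.62), Rpl9 (-0.26) and Rps7 (-0.22) had the smallest p and did not pass either. Rpl9 and Rps7 turned above 0 when HP primary 5 was left out.

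Between nodes and HPN primaries, 7 of 81 members passed, or 8.64% of those tested, in a comparison in which 22.5% of all 19152 genes passed. In all 6 rose, among them Rps27, Rpl17, Rps6, Rpl35a and Rps23, and Rpl3l fell. The median member difference was 0.0961 on the log2 scale (53 of 81 above 0), and that of all genes -0.0766 (45.1% above 0). Small-subunit members had a median of 0.248 with 26 of 32 above 0, and large-subunit members 0.0354 with 27 of 49 above 0; the difference between the subunits was not tested. With the animal as a block, 1 member passed (Rps27, adjusted p = 0.0377, edgeR), and with the 8 libraries that list low-quality reads left out 1 passed (Rpl3l). Scaled by total counts the count was 18 up and 1 down, in a fit whose median over all genes moved from -0.0766 to 0.0690.

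Rps27, a zinc-finger protein of the small subunit also known as metallopanstimulin, differed most among the members that rose. Its level was 72.12 CPM at the lowest, 148.2 CPM at the median and 180.6 CPM at the highest of 7 HPN primaries. In 6 node samples these were 159.0, 307.1 and 399.6 CPM, and lungs 3 and 4 held 90.07 and 152.0 CPM. Nodes 3 and 4 lay within the range of the primaries and the other 4 node samples above it. The log2 difference was 0.99 (SE 0.25, edgeR adjusted p = 0.0129), from 140.4 ± 35.7 CPM (SD, n = 7) to 281.6 ± 94.4 CPM (n = 6).

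Its paralogue Rps27l did not follow. Rps27l ran from 27.50 through 55.76 to 79.63 CPM in HPN primaries and from 26.07 through 38.79 to 57.15 CPM in nodes, a log2 difference of -0.42 (SE 0.23) that did not pass (edgeR adjusted p = 0.190). The ratio of Rps27 to Rps27l in CPM was 2.05 to 3.94 in HPN primaries, 3.10 to 15.3 in nodes, and 1.96 and 2.67 in the lungs. It was highest in node 5 and lowest among nodes in node 4, the only node within the primaries' range. This ratio was chosen after the values were seen and was not tested.

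The other members that rose differed by less. Rps6, the small-subunit protein phosphorylated by the S6 kinases, ran from 128.3 through 193.3 to 234.5 CPM in HPN primaries and from 215.0 through 267.2 to 336.8 CPM in nodes (log2 difference 0.47, SE 0.15, edgeR adjusted p = 0.0387). Rpl35a, a Diamond-Blackfan anaemia gene, ran from 95.05 through 109.7 to 127.9 CPM and from 117.8 through 158.9 to 180.7 CPM (0.46, SE 0.13, edgeR adjusted p = 0.0205). Nodes 3 and 4 lay within the primaries' range for Rps6, and node 3 for Rpl35a, and the other node samples lay above it.
Rpl17 (0.52, edgeR adjusted p = 0.0458) and Rps23, a protein of the decoding centre (0.40, edgeR adjusted p = 0.0376), also overlapped between groups. Leaving out 1 sample at a time, Rps27 and Rpl35a passed in each of 15 fits, and Rps6, Rps23 and Rpl17 were lost in 8, 9 and 10 of them. Rpl3l also passed in each, but from the low node counts given below.

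**Figure D3:**
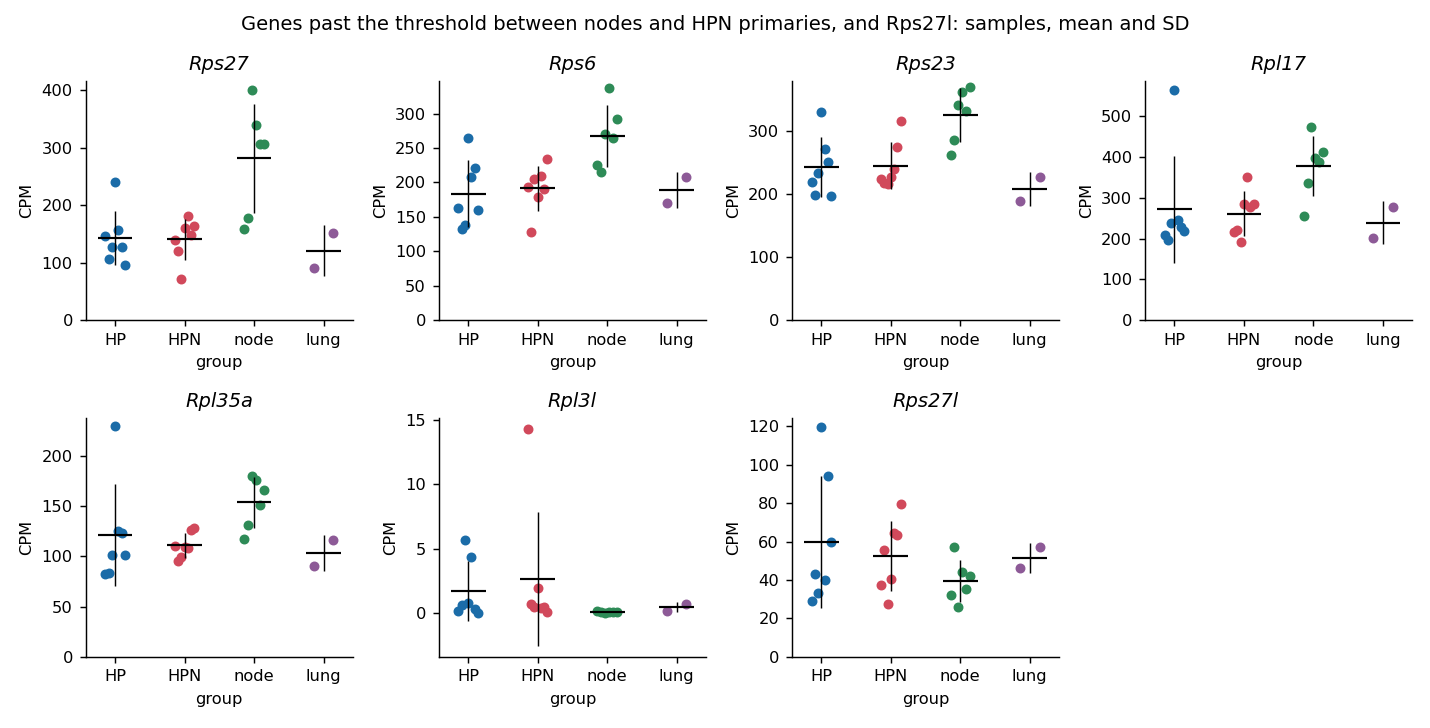
CPM of 6 ribosomal protein genes past the threshold between nodes and HPN primaries, and of Rps27l, in the samples of each group (points), with the mean (line) and SD (vertical bar); nodes 7a and 7b are averaged. Rps27 in nodes spans 159.0 to 399.6 CPM against 72.12 to 180.6 CPM in HPN primaries, Rpl3l lies near 0 in all nodes, and Rps27l spans 26.07 to 57.15 CPM in nodes against 27.50 to 79.63 CPM.

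Rpl3l fell, from counts that were low in most libraries. HPN primaries held 0.1265 CPM at the lowest, 0.5076 CPM at the median and 14.3 CPM at the highest, in HPN primary 1 with 410 counts, and nodes held 0.04396 to 0.1468 CPM, 1 to 4 counts per library. The log2 difference was -4.81 (SE 1.14, edgeR adjusted p = 0.00877), and the lowest primary overlapped the highest node. With so few counts in nodes, Rpl3l entered this test through libraries outside the nodes. The HPN primary mean (2.638 ± 5.18 CPM, SD, n = 7) rested largely on HPN primary 1, so the size of the fall is uncertain. The other high libraries were HP primary 4 (5.67 CPM) and HP primary 6 (4.338 CPM). Skeletal muscle markers (Myh1, Myh4, Ckm, Acta1 and Tnnt3) moved with it: their sum was 3330 CPM in HPN primary 1, 1390 CPM in HP primary 4 and 697 CPM in HP primary 6, 0.911 to 3330 CPM over HPN primaries, and 1.79 to 7.16 CPM in nodes. All 5 fell in nodes, and their part in the Rpl3l result was not tested.

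Markers of lymphocytes moved with the members that rose. The 5 B cell markers summed to 135 to 1230 CPM in node libraries and to 0.492 to 6.48 CPM in HPN primaries, and the 5 T cell markers to 72.6 to 480 CPM and 3.62 to 23.7 CPM; all 10 rose. Node 4 had the smallest sums of both and the lowest Rps6 of the node samples, while node 3 was the lowest for Rps27, Rpl17, Rpl35a and Rps23. Node 5 had the largest B cell sum and the highest Rps27, Rpl17 and Rpl35a, but not the highest Rps6 or Rps23. Keratinocyte markers moved the other way, 1.34 to 20.1 CPM in nodes against 1.98 to 5680 CPM in HPN primaries, with all 6 lower. The part of these cells in the ribosomal protein values was not tested. Node 5 also had the fewest gene counts of all libraries (18.9 in units of 1e6). Uniquely aligned reads assigned to no gene made up 66.1% there, 34.5 to 66.1% in nodes and 25.3 to 49.0% in HPN primaries. The part of these library differences was not tested either.

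Of the members taken for their roles (stalk, MDM2 binding, laminin receptor and Diamond-Blackfan anaemia), Rpl35a passed in nodes and the others named here did not. The stalk genes Rplp0 (-0.05), Rplp1 (0.00 at 2 decimals) and Rplp2 (0.15) had small log2 differences. Rpl5 and Rpl11, which bind MDM2 when ribosome assembly is disturbed, differed by 0.35 (SE 0.12, edgeR adjusted p = 0.0539) and -0.11 (edgeR adjusted p = 0.660). Rpsa, which also serves as a laminin receptor, differed by 0.24 (edgeR adjusted p = 0.237). Among Diamond-Blackfan genes, Rps19 (0.23), Rps24 (0.37) and Rps26 (-0.18) did not pass.

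Lung metastases stood lower than HPN primaries for most members, but no single member passed. The median difference of 81 members was -0.239 with 5 above 0, against -0.0621 and 43.5% over all genes, and 0 members passed the edgeR test, where 0.266% of all genes did; 4 members had an unadjusted p under 0.05 and DESeq2 called 0. With the animal as a block the median was -0.0889 and 27 of 81 were above 0. In 5 of 81 members (Rps13, Rpl12, Rpl6, Rplp2 and Rpl10a) both lungs lay below every HPN primary, as did 1.67% of all genes. Rps13 held 70.48 and 81.76 CPM in the lungs and 86.75 to 217.7 CPM in HPN primaries (log2 difference -0.87, SE 0.34, edgeR adjusted p = 0.622). Rpl12 held 239.4 and 241.0 CPM against 302.3 to 569.6 CPM (-0.63, SE 0.25, edgeR adjusted p = 0.630). Rpl38 (-0.64) had the third smallest p downward, and Rpl7 (0.20), Rpl9 (0.14) and Rps14 (0.14) the smallest upward. The last 2 rested on lung 4, without which they stood at -0.26 and -0.38. Lung epithelium markers summed to 7430 CPM in lung 4 and 3.31 CPM in lung 3, and their part in the values of Rpl9 and Rps14 was not tested.

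Against nodes, the lungs' log2 differences had a median of -0.368 with 7 of 81 members above 0, where all genes had 0.0149 and 50.9% above 0. None passed the edgeR test (5.04% of all genes did), 21 had an unadjusted p under 0.05, and DESeq2 called 10, all lower. In 33 members both lungs lay below every node sample, as they did for 13.9% of all genes. Rps21 (-0.88, SE 0.27) held 69.81 and 95.44 CPM in the lungs and 112.7 to 189.1 CPM in nodes, with an edgeR adjusted p of 0.0729. Rps23 (188.8 and 227.2 CPM against 261.0 to 369.4 CPM, edgeR adjusted p = 0.0734) and Rps3a1 (306.3 and 349.9 CPM against 439.6 to 567.6 CPM, edgeR adjusted p = 0.0835) followed. Without node 4, 3 members passed, all lower. The 3 members with the smallest p upward, Rpl3l, Rps27l (0.40) and Rpl7l1 (0.18), did not pass. This comparison shares its lungs with the previous one and its nodes with the one before, so the 3 are not independent; B cell markers were 1.32 and 9.20 CPM in the lungs, and their part was not tested.

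**Figure D4:**
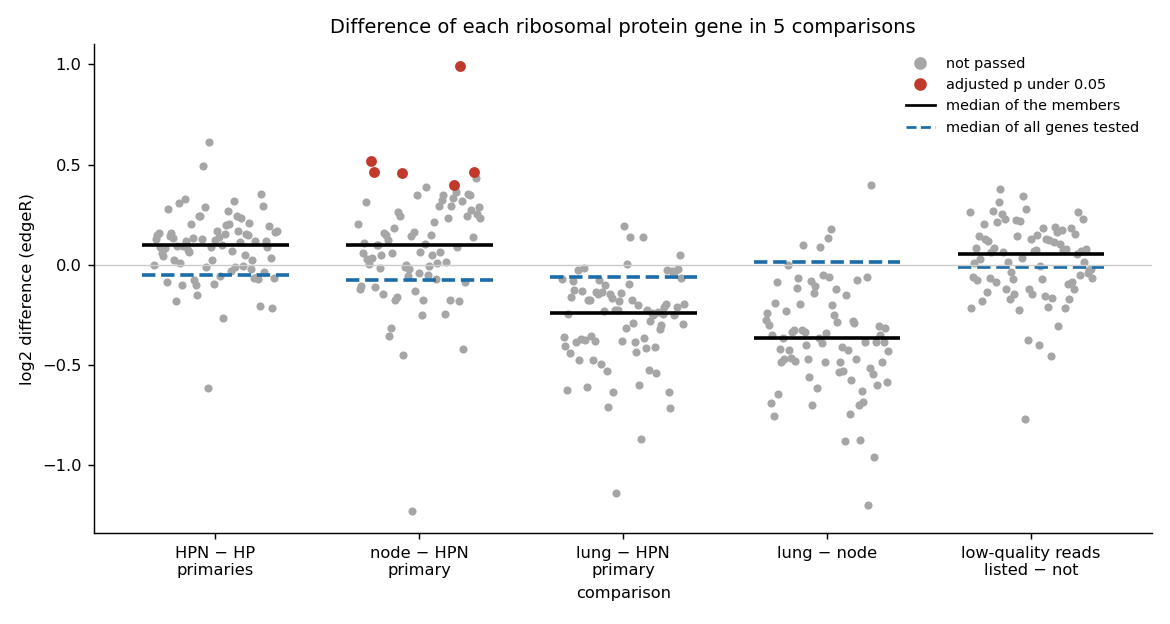
Log2 difference from edgeR of each ribosomal protein gene in 5 comparisons (points; red where the adjusted p is under 0.05), with the median of the members (black) and of all genes tested (dashed). Values beyond 1.6 (Rpl3l in 3 comparisons) are not drawn. The members lie below 0 almost throughout in lung against HPN primary and lung against node, and around 0 in the others.

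The count tables carry an entry for reads of too low alignment quality. It was 196 to 3710 reads in HP primaries 3, 6, 7, 9, HPN primary 7, node 8 and both libraries of node 7, and 0 in the remaining 15. No member passed between these sets in a fit with the group as a term. The members' summed level was 23240 ± 4950 CPM (SD, n = 8 libraries, of which nodes 7a and 7b share an animal) where such reads are listed and 22590 ± 5110 CPM (n = 15) where they are not. Of 81 members 0 passed the edgeR test (1.53% of all 19637 genes did), 1 had an unadjusted p under 0.05, and DESeq2 called 0. The median difference was 0.0554 with 46 above 0, and -0.0113 over all genes. Scaled by total counts it was -0.0937, with -0.184 over all genes. Within HP primaries alone it was -0.229, and 0.0552 when HP primary 5 was also left out; within nodes alone it was 0.0969. Upward, Rpl4 (0.28), Rpl27a (0.31) and Rpl28 (0.38) had the smallest p, and downward Rps14 (-0.46), Rpl9 (-0.40) and Rpl41 (-0.37); none passed.

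The pseudogenes of the same family did separate the 2 sets. These are intronless copies of ribosomal protein mRNAs in the genome, many nearly identical to their parent gene, and 195 with -ps in their names were in the counts. They summed to 23.8 to 45.6 CPM in the 8 libraries with listed low-quality reads and to 51.6 to 102 CPM in the other 15, by total counts, with no overlap. The same held inside HP primaries (23.8 to 45.6 CPM against 56.7 to 102 CPM), inside HPN primaries (30.5 CPM in the 1 such library against 52.1 to 77.4 CPM) and inside node libraries (37.0 to 38.9 CPM against 55.9 to 85.8 CPM). Per 1000 counts in members, pseudogenes had 1.24 to 2.03 counts and 2.04 to 3.61 counts.

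The expression filter kept 81 of the 195 pseudogenes, and a copy near 0 in the 8 libraries could enter through the other 15. The directions and shares among tested copies therefore depend in part on this filter. Of 81 pseudogenes tested, 2 had a log2 difference above 0, the median was -1.16, and 32 passed, all lower in the 8 libraries. That is 39.5%, against 192 of 939 pseudogenes of all kinds, or 20.4%; the difference between these shares was not tested. In all, 248 genes were lower. Rps23-ps2 held 2 to 7 counts where low-quality reads are listed and 15 to 72 where they are not (-2.90, edgeR adjusted p = 1.6e-05). Rps18-ps1 held 0 to 3 and 9 to 81 counts, and Rpl3-ps2 held 1 to 8 and 13 to 56. Their parents Rps23, Rps18 and Rpl3 did not pass. Within HP primaries alone 0 of 26 pseudogenes passed (0 above 0) and within nodes alone 0 of 25 passed (2 above 0). Without HP primary 5, 20 passed. Reads aligned to several places made up 15.2 to 24.9% of aligned reads in the 8 libraries and 13.8 to 25.4% in the others, and the part of alignment and counting in the pseudogene result was not tested.

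**Figure D5:**
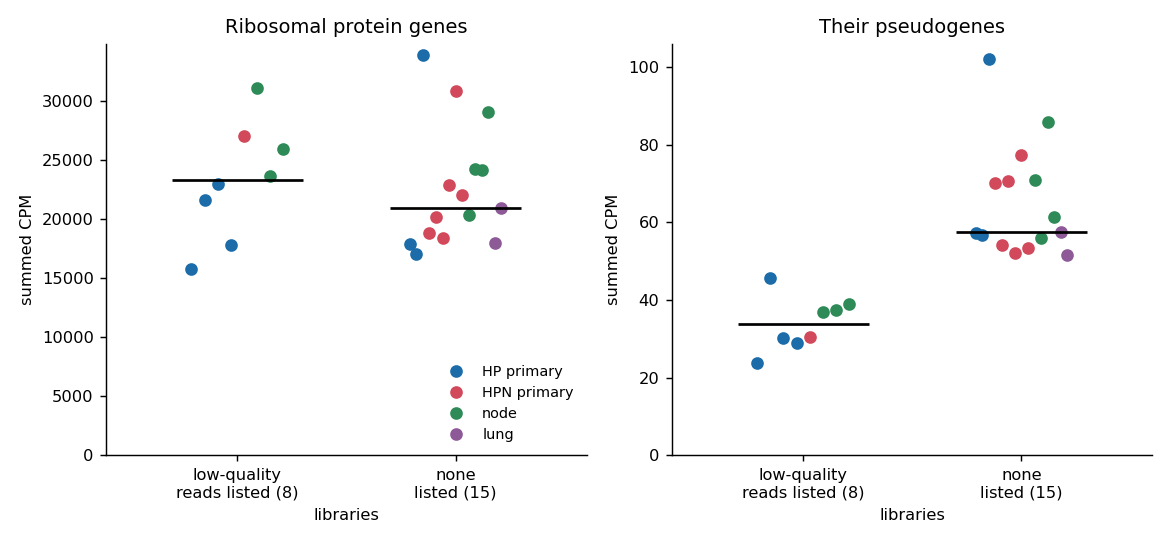
Summed CPM of the ribosomal protein genes (left, scaled by TMM) and of their pseudogenes (right, by total gene counts) in the 8 libraries with listed low-quality reads and the 15 without, coloured by group; lines are medians. The genes overlap fully, and the pseudogenes fall in separate ranges, 23.8 to 45.6 and 51.6 to 102 CPM.

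Levels of members with and without pseudogene copies were alike in their medians. The 19 members of at least 5 CPM with no named copy had a median of 138 CPM per kb, the 33 with 1 to 3 copies 133 CPM per kb, and the 27 with over 3 copies 157 CPM per kb. Reads listed as aligned to several places stood in an entry that names no gene. How the alignment chose between parent and copy for other reads is not stated.

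The wider translation machinery was read from lists. In nodes against HPN primaries, where 12.7% of all genes rose and 9.81% fell, 2 of 26 translation factors rose, Eif4a2 (0.80, SE 0.23), an initiation helicase, and Fau (0.39, SE 0.13), which encodes a fusion of a ubiquitin-like protein and the small-subunit protein eS30; 0 fell. Of 30 ribosome assembly genes, 0 rose and 2 fell, Eif6 (-0.47, SE 0.14), which keeps free 60S subunits from joining 40S, and Nhp2 (-0.52, SE 0.17) of the H/ACA particles. Of 75 mitochondrial ribosomal proteins, 0 rose and 8 fell, among them Mrpl12 (-0.57, SE 0.14) and Mrpl2 (-0.67, SE 0.19). Their median was -0.221 with 11 above 0, while the cytosolic members had 0.0961. The counts of the mitochondrial list were near the share of all genes that fell, and those of the other lists were below the share of all genes. Of 5 snoRNA host genes tested, 0 passed and 5 were above 0. In the other 4 comparisons 0 genes of these 4 lists passed the edgeR test, with 0 to 11 of each list at an unadjusted p under 0.05. The 11 were of 30 ribosome assembly genes for low-quality reads, where 26 were above 0 (median 0.167). Translation factors there had 7 of 26, with 21 above 0 (median 0.163). Mitochondrial ribosomal proteins had 3 of 75 and snoRNA host genes 0 of 5. Over all genes it was 2173 of 19637, with a median of -0.0113. DESeq2 was not read for these lists.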

How the data were processed

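Each library has a deposited table of raw counts by Ensembl identifier. The submitters' processing notes name bcl2fastq 1.8.4, STAR 2.5.3a and build mm9. The counting tool, strand setting and annotation were not given in the sources used here. Entries that name no gene were left out. Symbols, types and exon lengths came from GENCODE vM21 by identifier (32897 of 37620 matched); 1 member, Rpl24, was not matched. Some single-gene results are not reported here; counts and medians over the members include those genes.

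Tests were run in R 4.3.3 with edgeR 4.0.16: filterByExpr, TMM scaling, glmQLFit (robust) and glmQLFTest, with Benjamini-Hochberg adjustment over all genes tested and a threshold of 0.05. HP and HPN primaries (14) were fitted together, HPN primaries, nodes and lungs (15 after summing nodes 7a and 7b) together, and all 4 groups with a term for listed low-quality reads. Members named were, per comparison, the 5 largest changes each way that passed (with 5 CPM or more as the larger group mean), or the 3 smallest p each way where none passed; those at the ends of level and spread; and fixed stalk, MDM2-binding, Diamond-Blackfan and paralogue genes. Rps23 in nodes falls outside this rule and was named after its values were seen. Members and lists were chosen with earlier results of these data known. Log2 levels used a pseudocount of 0.5. The fit was tested on simulated data. Alternatives were DESeq2 1.42.0, other scalings, filters, left-out samples and blocks.

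The block for nodes and lungs is the HPN number, read as the animal. Same-numbered samples' deviations correlated at -0.083 to 0.265 (nodes) and 0.069 and 0.435 (lungs). By correlation the same-numbered primary ranked 1 to 5 among all HPN primaries for nodes, and 4 and 1 for the lungs. Between genotypes, same-numbered primaries are different animals, and their deviations correlated at 0.104 to 0.661. The same-numbered HP primary ranked 2 to 4 among all HP primaries and was never the closest. Whether the number links samples across the genotypes in another way was not tested. Numbers were also used as a block there.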

Additional observations from a re-analysis of the deposited data

Results flagged for a closer look

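Of 138 groups of 6 or 7 samples examined (the summed level and 46 members in HP primaries, HPN primaries and nodes, without Rpl10l, which was 0 throughout), 22 had a sample that lay farther from the rest than Dixon's 95% limit allows; chance gives about 1 in 20, and members that move together are not independent. HP primary 5 was the highest HP primary by this rule for the summed level (33930 CPM, others up to 23010 CPM) and for 17 members. These were Rpl11 (265.4 CPM), Rpl12 (538.4 CPM), Rpl17 (565.4 CPM), Rpl22l1 (131.1 CPM), Rpl35a (230.3 CPM), Rpl36 (396.8 CPM), Rpl39 (198.0 CPM), Rpl41 (1158 CPM) and Rpl5 (510.4 CPM). They were further Rpl9 (947.0 CPM), Rps14 (940.0 CPM), Rps15 (463.0 CPM), Rps19 (472.5 CPM), Rps21 (195.3 CPM), Rps24 (496.0 CPM), Rps27 (240.0 CPM) and Rps7 (572.3 CPM). HPN primary 5 was the highest HPN primary for Rpl11 (319.0 CPM), Rpl22 (163.0 CPM) and Rpl36 (425.8 CPM). HPN primary 1 was highest for Rpl3l (14.3 CPM, others up to 1.968 CPM).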

How the results depend on the processing

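Depth limits Rpl3l and Rpl39l and the pseudogenes, whose counts per library were often under 20; lung has 2 samples and borrows the spread of other groups. Between genotypes, 0 members passed under each alternative, including the number as a replicate block. Between nodes and HPN primaries the main count of 7 became 11 with DESeq2, 19 by total counts, 3 with no filter, 1 with the animal as a block, 3 with low-quality reads as a term and 1 without the 8 libraries; leaving out 1 sample gave 3 to 9, with 3 or 4 without HPN primaries 1, 2, 4 or 6 or nodes 5, 6, 7 or 8. In lung against HPN primary 0 passed in each fit. In lung against node DESeq2 gave 10, and leaving out 1 sample gave 0 to 3. For low-quality reads 0 members passed in each fit, left-out samples included. The 32 pseudogenes became 11 with a filter of over 1 CPM (32 tested), 0 in HP primaries alone (with or without HP primary 5) and 0 in nodes alone; leaving out 1 sample gave 20 to 36. The pseudogene alternatives, HP primaries alone without HP primary 5, the left-out samples for the summed level and the genotype fit on shared numbers with no block were chosen after seeing the data. Signs turned for members that had not passed: Rpl39l (0.0717, genotype, 15 libraries without low-quality reads); without HP primary 5, Rpl9 (left-out range -0.363 to 0.141) and Rps7 (-0.294 to 0.0732) in genotype and Rpl41 (-0.52 to 0.0161) for low-quality reads; without lung 4, Rpl9 (-0.255 to 0.462) and Rps14 (-0.375 to 0.532) against primaries and Rpl7l1 (-0.0141 to 0.353) against nodes; and Rpl27a (-0.0114, low-quality reads, HP primaries alone). The median for low-quality reads was -0.0937 by total counts. The summed level in nodes was 28500 CPM with structural RNA left out. Beyond the fits named, the cause of these changes was not tested.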
